A study of Mus musculus with 10 samples.

Results

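Canonical histone genes were examined for 2 modifications of histone H3, lysine 18 lactylation (H3K18La) and lysine 27 acetylation (H3K27Ac), in mouse retina kept in low or high glucose. Members were all peaks whose gene symbol carried one of the replication histone prefixes (the older Hist prefixes, or H2ac, H2bc, H3c, H4c and H1f), in any annotation class. The rule found 37 of 108253 peaks and 29 of 25400 gene symbols. Retinas of wild-type C57BL/6J mice at postnatal day 28 were explanted without retinal pigment epithelium, held in culture with either 5 mM or 25 mM glucose over 48 hours and dissociated, and 500000 cells entered each CUT&Tag assay, in which an antibody brings a DNA-cutting enzyme to a modified histone. The sample titles name H3K27Ac, as does the study's text, but the protocol in the labels names an H3K9me3 antibody and pA-MNase (a nuclease) where the study's methods name an H3K27Ac antibody and a transposase, and what was used could not be settled from these values. H3K18La had 3 libraries and H3K27Ac had 2 libraries per glucose level, and the labels place all 10 in 1 batch. No label says that replicates came from separate animals or cultures, so p-values measure only the spread between these libraries.

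A nucleosome wraps DNA around the core histones H2A, H2B, H3 and H4, and the linker histone H1 binds the DNA between nucleosomes. The canonical genes for these proteins lie in tandem clusters, are transcribed mainly in S phase when new DNA must be packaged, and give short messages that end in a stem-loop in place of a poly(A) tail. Non-dividing cells, such as the neurons of a mature retina, replace histones mainly from genes outside the clusters, among them H3f3a and H3f3b for H3.3, H2az1 and H2az2 for H2A.Z, and H1f0 for the linker histone H1.0. The prefix rule also takes in such genes. H1f0 and the oocyte linker histone gene H1f8 are not tied to replication, H2bc1 is a testis-type gene, and the symbols H2ac14, Hist1h2al and H1f11-ps were annotated as pseudogenes, with 1 peak each.

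The 37 peaks comprised 7 with H1, 4 with H2A, 12 with H2B, 2 with H3 and 12 with H4 symbols. Of these, 23 were annotated as promoters (around an annotated transcription start site), 6 as distal intergenic, 3 as 3′ UTR, 2 as 5′ UTR, 2 as intron and 1 as exon. Chromosome 13 held 33 of them. They lay in 4 stretches of the GRCm38 assembly, called A to D here: A (chr13:21710024-21750865) with 6 peaks, B (chr13:22035016-22043744) with 3, C (chr13:23530340-23764370) with 22 and D (chr13:23930676-23931790) with 1, besides 1 peak elsewhere on that chromosome. Where a symbol had several peaks, they are numbered here along the chromosome, as in H4c3_1 and H4c3_2.

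The deposited peak set covered only part of the family. The study's methods describe a merged H3K18La peak set of developing retina and, for a principal component analysis of explants, a merged set of both marks. The sources do not state which of them the deposited table holds. Its number of rows, 108253, equals that of the developmental set, which was called on H3K18La alone. If the table holds that set, regions with H3K27Ac alone would have no row. RefSeq annotates 76 histone genes on GRCm38, pseudogenes included, and 66 of them have a promoter window of 250 bases before to 50 bases after the gene start. A peak overlapped 30 of these 66 windows. The gene clusters at A and D run past the stretches of peaks named above. In a peak were all 5 windows of the cluster at B, 16 of 26 of that at C and 5 of 18 of that at A, against 0 of 2 near D and 0 of 8 in the chromosome 3 cluster. Within the coordinates of stretch A there were 6 windows, 5 of them in a peak, and within those of D there were 0. Repeated sequence was counted in the windows. Among the 36 windows in no peak, 9 had more than 50% of their 101-base words (the length of a read) elsewhere in the genome as well, against 0 of the 30 windows in a peak, where the highest share was 6%. The median share was 0% in both sets, and the part of repeats in the missing peaks was not tested. Outside the peak set no signal was measured, so levels at those promoters are not known from these values.

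**Figure D1:**
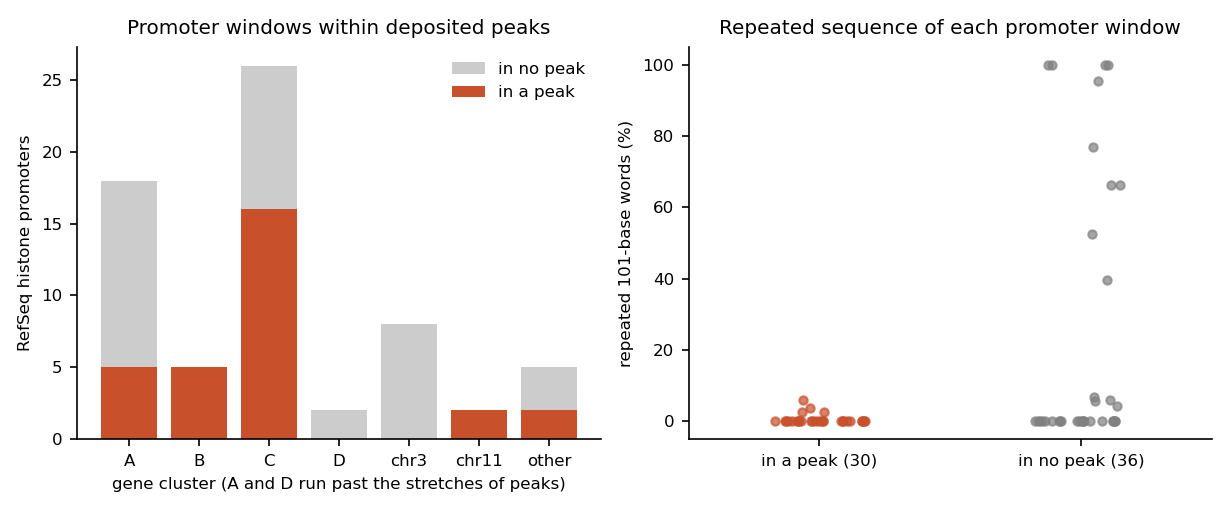
Left, RefSeq histone promoter windows (count) by gene cluster (A to D name the cluster at each stretch of peaks, and those at A and D run past it), with the part inside a deposited peak in colour; right, the share (%) of 101-base words of each window that occur elsewhere in the genome, for the 30 windows in a peak and the 36 in none. All 8 windows on chromosome 3 are in no peak, and the windows with mostly repeated sequence are all among those in no peak.

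Divergent pairs share peaks. A single peak spanned the promoters of both H2bc13 and H2ac13, of H2ac12 and H2bc12, of H2ac11 and H2bc11, and of H2ac8 and H2bc8, so that each of these 4 member peaks covers 2 such windows. Counted by gene body, 8 member peaks overlapped more than 1 RefSeq histone gene, pseudogenes included, among them H2bc4_1 (H2ac6 and H2bc4) and H4c1_2 (H4c1 and H3c1), whose signal cannot be divided between the genes. In all, 23 member peaks overlapped a RefSeq histone promoter and 14 did not. The annotation class did not always follow this. The peak H2bc6_1 was annotated as 5′ UTR of a long H2bc6 transcript, yet it lies over the RefSeq promoter of H2bc6, and the promoter peak named for H2bc4 lies over that of H2ac6. Repeated words made up 37.9% of the H2bc12 peak, the highest share among members, more than 10% of 14 member peaks and none of 16.

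The promoter sequences of members that the results turn on are given here as the 130 bases that end just before the RefSeq gene start (RefSeq, GRCm38.p6, strand of the gene), with H1f5 as a linker gene whose promoter was in no peak and H1f0 as the replication-independent linker gene. Capitals mark 4 short motifs known from histone promoters, searched on both strands: the TATA box (TATAAA), the CCAAT box (CCAAT), the octamer bound by Oct-1 (ATTTGCAT) and the H1 box (AAACACA). No motif contains another.
H1f2: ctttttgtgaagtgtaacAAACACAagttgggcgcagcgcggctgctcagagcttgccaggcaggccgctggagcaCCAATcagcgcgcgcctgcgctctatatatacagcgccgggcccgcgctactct
H1f1: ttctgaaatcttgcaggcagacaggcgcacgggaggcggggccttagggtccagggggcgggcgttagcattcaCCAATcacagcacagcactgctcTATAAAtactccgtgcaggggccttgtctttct
H1f5: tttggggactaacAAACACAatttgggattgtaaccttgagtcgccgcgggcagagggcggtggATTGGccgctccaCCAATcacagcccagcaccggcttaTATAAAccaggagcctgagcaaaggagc
H1f0: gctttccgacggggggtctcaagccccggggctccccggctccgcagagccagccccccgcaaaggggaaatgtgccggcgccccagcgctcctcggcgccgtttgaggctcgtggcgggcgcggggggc
H2ac4: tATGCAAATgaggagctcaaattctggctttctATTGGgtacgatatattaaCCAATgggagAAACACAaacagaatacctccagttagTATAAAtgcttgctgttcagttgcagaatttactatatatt
H2bc3: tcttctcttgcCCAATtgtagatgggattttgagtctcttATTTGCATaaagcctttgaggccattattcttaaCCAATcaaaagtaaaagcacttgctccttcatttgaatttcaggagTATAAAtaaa
H3c6: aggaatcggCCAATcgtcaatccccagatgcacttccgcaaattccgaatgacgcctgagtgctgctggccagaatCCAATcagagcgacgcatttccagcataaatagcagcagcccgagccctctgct
H4c3: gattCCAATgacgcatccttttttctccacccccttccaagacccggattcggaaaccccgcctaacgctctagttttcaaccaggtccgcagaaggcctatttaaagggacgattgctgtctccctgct

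H1f2 (chr13:23738677-23738806, plus strand) and H1f5 (chr13:21780626-21780755, minus strand) each carried an H1 box, which began 112 and 117 bases before the start, and a CCAAT box that began 54 and 53 bases before it. H1f5 also had a second CCAAT box, on the other strand, and a TATA box. H1f1 (chr13:23763538-23763667, plus strand) carried a CCAAT and a TATA box in this stretch and no AAACACA. H2ac4 (chr13:23750958-23751087, plus strand) and H2bc3 (chr13:23746604-23746733, plus strand) each carried an octamer, 2 CCAAT boxes and a TATA box, and H2ac4 also held the letters of the H1 box. H3c6 (chr13:23562386-23562515, minus strand) had 2 CCAAT boxes and H4c3 (chr13:23698459-23698588, minus strand) had 1. The stretch of H1f0 (chr15:79028082-79028211, plus strand) held none of the 4 and was 76.9% G and C. Over the 67 windows of RefSeq histone genes, TATAAA was present in 52.2%, against 13.6% of all 32851 RefSeq promoter windows, CCAAT in 82.1% against 37.4%, ATTTGCAT in 20.9% against 1.74% and AAACACA in 13.4% against 7.18%. The octamer was found in 7 of 18 H2A and 7 of 17 H2B windows and in 0 of 32 windows of the other classes. CCAAT was found in every H2A, H2B and H3 window, in 7 of 10 H1 windows and in 3 of 12 H4 windows. Windows of divergent H2A and H2B genes overlap, as at H2ac13 (chr13:21716162-21716461) and H2bc13 (chr13:21716134-21716433). With both strands searched, the same bases can count in both classes and more than once among the 67 windows. These counts and shares are therefore not over separate stretches of DNA. A match of letters does not show that a factor binds, and its absence says only that these letters are not in the window.

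Values are RPKM as deposited, with peak length and a read total per library as divisors. That total ranged from 1358008 to 7424470 reads. Reads in peaks were 11.8% to 12.01% of the denominator at 5 mM and 31.2% to 35.0% at 25 mM for H3K18La, and 21.1% and 31.5% against 56.5% and 69.5% for H3K27Ac. This share moved with glucose in the same direction as the members, and its part in each result was not tested beyond the scaling to reads in peaks given below. The retina label was checked on promoter peaks of marker genes: all 7 rod markers had one (Nrl, Nr2e3, Sag and others), with summed levels of 47.8 and 85.7 RPKM in H3K27Ac at 5 mM and 227 and 412 RPKM at 25 mM, and 5 of 6 cone, 4 of 5 bipolar and 5 of 6 Müller glia markers had one. For microglia, pigment epithelium and vessels, 1 of 6, 2 of 5 and 2 of 5 had one, with summed H3K27Ac levels of 0.332 to 6.70 RPKM in any library. The bipolar sums of 3.92 to 5.71 RPKM at 5 mM did not stand above those of vessels (5.57 to 5.66 RPKM). At 25 mM they were 17.3 to 30.6 RPKM, against 3.83 to 4.62 RPKM for vessels. The assays are on bulk tissue, in which fewer cells of a type and less signal per cell cannot be told apart.

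The histone promoters that had a peak lay mostly below the median promoter in H3K18La and nearer to it in H3K27Ac. Against the 14562 genes with a promoter peak, each taken by its strongest one, the 23 member promoters had a median percentile of 33.1 for H3K18La at 5 mM (25.99 to 42.9 in single libraries) and 37.7 at 25 mM (35.7 to 40.8). Above the median promoter in H3K18La were 4 of 23 at 5 mM and 8 of 23 at 25 mM. For H3K27Ac the median percentile was 42.5 at 5 mM (36.7 and 44.5) and 48.8 at 25 mM (43.1 and 51.3). The range was wide. In H3K27Ac at 25 mM the member promoters ran from the 8.18th percentile, the pseudogene Hist1h2al, to the 91.2nd, H1f2, and 10 of 23 were above the median promoter.

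In H3K18La, 7 of the 37 histone peaks were higher at 25 mM glucose and 0 were lower (limma on log2(RPKM + 0.5), Benjamini-Hochberg adjusted over all peaks, threshold 0.05). That is 18.9% of members, against 20.6% of all peaks called higher and 0.117% called lower. The 7 were the promoters of the linker histone genes H1f2 and H1f1 and of H2ac4, and 4 peaks outside promoters, H4c3_2, H2bc1, H2bc6_3 and H2bc4_2. The count was 3 without the second library at 25 mM, 2 after median centring and 0 when scaled to reads in peaks (limma, 4 at an unadjusted p under 0.05). Of promoters alone 3 of 23 passed, or 13.0%, against 20.4% of all promoter peaks, and outside promoters 4 of 14 passed, or 28.6%, against 20.7%. All 25 mM libraries lay above all 5 mM libraries in 16 of 37 members, against 36.6% of all peaks, and 15 members had an unadjusted p under 0.05, against 33.0% of all peaks. The median log2 fold change of the members was 1.01, beside 0.76 over all peaks and 0.88 over all promoter peaks. With peaks at 0 reads in every 5 mM library set to the bound that 3 reads allow, these medians were 0.98, 0.71 and 0.87.

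The H3K18La values rest on few reads. The median member held 5 reads at 5 mM, summed over the 3 libraries, and 16 at 25 mM, and 2 members held 0 and 8 members 1 to 3 reads at 5 mM. A count of 0 reads allows up to 3, and such floors and intervals cover counting error only, since reads were not counted by molecular identifiers. Fold changes on the log2(RPKM + 0.5) scale understate the change of weak peaks.

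In H3K27Ac, 26 of the 37 histone peaks were higher at 25 mM and 0 were lower by the same test, 70.3% of members, against 16.4% of all peaks called higher and 0.179% called lower. The count was 4 after median centring (limma, 26 at an unadjusted p under 0.05), where 5533 of all peaks passed. It was 0 when scaled to reads in peaks (2 unadjusted), as over all peaks. Among promoters 16 of 23 passed, or 69.6%, against 40.6% of all promoter peaks. Outside promoters 10 of 14 passed, or 71.4%, against 11.9%. Both 25 mM libraries lay above both 5 mM libraries in 36 of 37 members, against 53% of all peaks. The exception was H2bc12. In all, 6 members passed in both marks and 10 in neither. The median log2 fold change was 1.40, beside 0.58 over all peaks and 1.13 over all promoter peaks. Members were also stronger peaks than most: their median level at 25 mM was 7.46 RPKM, against 1.99 RPKM over all peaks and 7.79 RPKM over all promoter peaks, and the part of level in the count of calls was not tested.

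The H3K27Ac calls needed all 4 libraries. Leaving out any 1 of them left 0 of all 108253 peaks past the threshold in limma, histone peaks included, with 22, 27, 15 and 13 members at an unadjusted p under 0.05 without the first and second library at 5 mM and the first and second at 25 mM, against 18.01%, 33.6%, 5.39% and 13.4% of all peaks. Such a fit has 1 residual degree of freedom and passed no peak whichever library was removed, so the loss says nothing particular about a library or about histone genes. The lone library of an arm was then assumed to vary like the other glucose level. All 37 members kept a log2 fold change above 0 in 3 of these fits, and 36 did without the second library at 25 mM. Moderation without allowance for outlying variances also left 0 peaks (29 members at an unadjusted p under 0.05), as did a pseudocount of 0.1 (31 members).

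**Figure D2:**
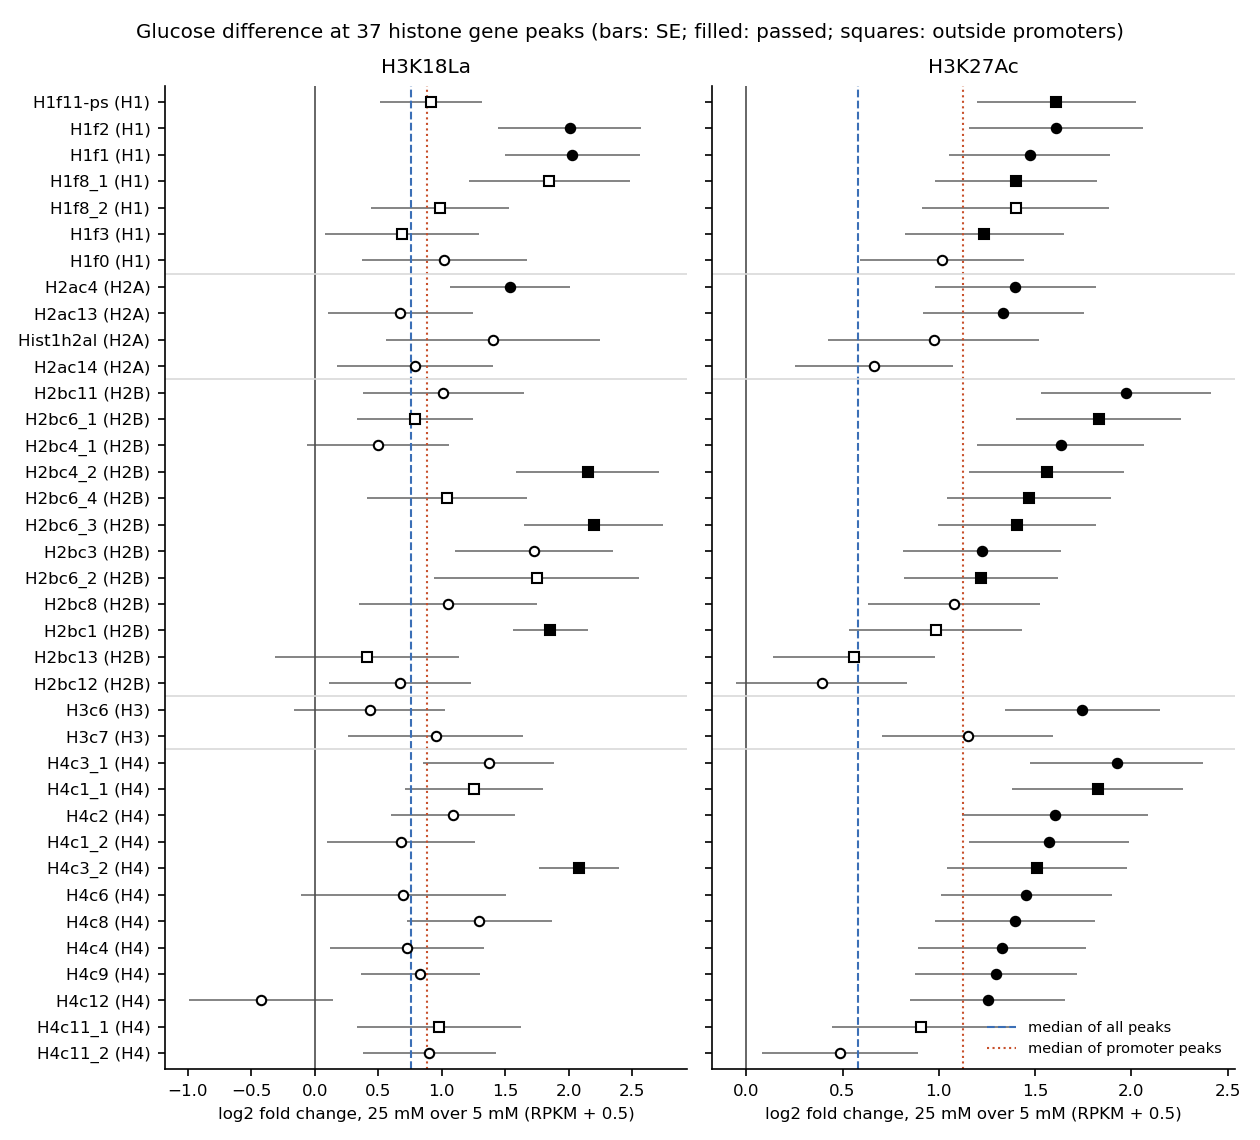
Log2 fold change of RPKM + 0.5 (25 mM over 5 mM, with its SE from limma) of each of the 37 histone gene peaks, by class, for H3K18La (left) and H3K27Ac (right), with the medians of all peaks and of all promoter peaks as vertical lines. Filled symbols passed an adjusted p of 0.05 (7 peaks on the left, 26 on the right), squares are peaks outside promoters, and H4c12 on the left is the 1 value below 0.

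The linker histone genes held the strongest member promoter and the clearest promoter rises in H3K18La. H1f2 encodes the linker histone H1.2, and its promoter peak (chr13:23738702-23740093) covers the gene start. Its H3K18La level was 1.36, 1.80 and 0 RPKM in the 5 mM libraries (4, 13 and 0 reads) and 6.94, 3.18 and 4.60 RPKM at 25 mM (19, 18 and 19 reads). All 25 mM libraries lay above the 5 mM ones, and the mean went from 1.05 ± 0.940 to 4.91 ± 1.90 RPKM (SD, n = 3 each), a log2 difference of 2.01 ± 0.56 (SE, limma adjusted p = 0.0216). Its H3K27Ac level was 7.97 and 9.02 RPKM at 5 mM and 29.2 and 24.8 RPKM at 25 mM, a log2 difference of 1.61 ± 0.45 (SE, limma adjusted p = 0.0241). In both marks the groups were apart. H1f2 did not pass for H3K18La after removal of any 25 mM library (limma adjusted p = 0.119, 0.0542 and 0.0705), with a pseudocount of 0.1 (0.0761) or without robust moderation (0.0730). Without the third library at 5 mM, which held 0 reads, its log2 difference was 1.33 and it passed (limma adjusted p = 0.0392).

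H1f1, the gene of linker histone H1.1, lies at the far end of stretch C (promoter peak chr13:23763390-23764370). Its H3K18La level was 0, 0.787 and 0.751 RPKM at 5 mM (0 to 4 reads) and 4.67, 2.76 and 2.75 RPKM at 25 mM (8 to 11 reads), a log2 difference of 2.03 ± 0.53 (SE, limma adjusted p = 0.0149). Its H3K27Ac level was 3.54 and 3.61 RPKM at 5 mM and 12.5 and 9.34 RPKM at 25 mM, a log2 difference of 1.47 ± 0.42 (SE, limma adjusted p = 0.0250). The groups did not overlap in either mark. For H3K18La, H1f1 did not pass without the first (limma adjusted p = 0.0847) or second (0.0584) library at 25 mM. H1f3, the gene of H1.3, was held by a peak annotated as 5′ UTR that covers its RefSeq promoter, with a log2 difference of 0.69 in H3K18La (SE 0.61, limma adjusted p = 0.470) and 1.24 in H3K27Ac (SE 0.41, limma adjusted p = 0.0444). H1f3, and below H1f8_1 and H1f11-ps, are named after their values were seen.

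H1f0, the linker histone gene used by non-dividing cells, did not pass for either mark. Its promoter peak (chr15:79027778-79028980) had 0, 0.962 and 0 RPKM of H3K18La at 5 mM and 1.69, 0.818 and 0.561 RPKM at 25 mM, so that the groups overlapped (log2 fold change 1.02, SE 0.65, limma adjusted p = 0.296). Its H3K27Ac level was 4.23 and 4.82 RPKM at 5 mM and 12.02 and 7.73 RPKM at 25 mM (log2 fold change 1.02, SE 0.43, limma adjusted p = 0.0998). H1f10 had no peak. Both H1f8 peaks were annotated as its 3′ UTR, on chromosome 6, where the nearest other gene in RefSeq was Plxnd1, at 6695 and 4312 bp. H1f8_1 passed for H3K27Ac (log2 fold change 1.40, SE 0.42, limma adjusted p = 0.0295). H1f11-ps, an intergenic peak 1766 bp wide assigned to a linker histone pseudogene, passed for H3K27Ac alone (log2 fold change 1.61, SE 0.41, limma adjusted p = 0.0187), against 0.92 in H3K18La (SE 0.40, limma adjusted p = 0.126).

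Among the 4 H2A promoters, H2ac4 was the strongest over the 10 libraries and the only one to pass in H3K18La. Its peak (chr13:23750976-23751746) held 0.615, 0.501 and 0.955 RPKM of H3K18La at 5 mM (1 to 2 reads) and 1.98, 3.51 and 3.50 RPKM at 25 mM (3 to 11 reads). The groups were apart, with a log2 difference of 1.54 ± 0.47 (SE, limma adjusted p = 0.0320). Its H3K27Ac level rose from 2.21 ± 1.01 to 6.39 ± 0.394 RPKM (SD, n = 2 each), a log2 difference of 1.40 ± 0.42 (SE, limma adjusted p = 0.0294). In H3K18La the call was lost on leaving out the first or the second 5 mM library (limma adjusted p = 0.0577 and 0.0770) and without the second or the third at 25 mM (0.138 and 0.124), and with the replicate number as a block (0.0534). H2ac13, whose peak also holds the H2bc13 promoter, passed for H3K27Ac alone (1.36 ± 0.604 to 4.09 ± 0.657 RPKM, SD, n = 2 each, log2 fold change 1.33, SE 0.42, limma adjusted p = 0.0352). Hist1h2al had the lowest H3K27Ac level of the class, with 0 and 1 reads of H3K27Ac at 5 mM and 2 and 4 at 25 mM (log2 fold change 0.97, SE 0.55, limma adjusted p = 0.226).

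No H2B promoter passed for H3K18La (limma, 1 of 5 at an unadjusted p under 0.05) and 3 of 5 passed for H3K27Ac. H2bc11, whose peak in stretch B is shared with H2ac11, had the largest H3K27Ac difference of all members on the log2(RPKM + 0.5) scale. As a ratio of mean RPKM it was 4.63, below the 5.96 of H4c1_1, and in RPKM H1f2 gained more. H2bc11 went from 0.623 and 2.06 RPKM to 5.34 and 7.08 RPKM (4 and 19 reads to 57 and 78), a log2 difference of 1.97 ± 0.44 (SE, limma adjusted p = 0.0141). In H3K18La its libraries overlapped, at 1.92, 0.260 and 0 RPKM against 1.71, 1.33 and 1.36 RPKM (log2 fold change 1.01, SE 0.64, limma adjusted p = 0.291). H2bc4_1, over the H2ac6 promoter, rose in H3K27Ac from 2.74 ± 1.56 to 8.97 ± 0.763 RPKM (SD, n = 2 each, log2 fold change 1.63, SE 0.43, limma adjusted p = 0.0206), and H2bc3 from 3.12 ± 0.222 to 8.01 ± 1.42 RPKM (log2 fold change 1.22, SE 0.41, limma adjusted p = 0.0447). H2bc3 had an H3K18La log2 difference of 1.73 ± 0.63 (SE, limma adjusted p = 0.0664) with its groups apart, and it passed without the first library at 5 mM (0.0158). H2bc12 had the smallest difference in H3K27Ac, 1.81 and 1.15 RPKM against 1.39 and 2.97 RPKM (log2 fold change 0.39, SE 0.44, limma adjusted p = 0.586).

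Only 2 peaks had H3 symbols, both promoters in stretch C, and neither passed for H3K18La (limma, 0 of 2 at an unadjusted p under 0.05). H3c6 rose in H3K27Ac from 1.90 and 1.44 RPKM to 7.15 and 6.33 RPKM, or from 11 and 12 reads to 69 and 63, a log2 difference of 1.74 ± 0.40 (SE, limma adjusted p = 0.0147). In H3K18La it held 3 reads at 5 mM and 6 at 25 mM over the libraries, a ratio of 1.92 after scaling (exact 95% interval 0.411 to 11.9), so a difference was not detectable at this depth (fitted log2 fold change 0.43, SE 0.60, limma adjusted p = 0.654). H3c7 had the higher H3K27Ac level, 7.44 and 4.24 RPKM at 5 mM and 11.8 and 14.6 RPKM at 25 mM (log2 fold change 1.15, SE 0.44, limma adjusted p = 0.0741). Its H3K18La counts were 1 read at 5 mM and 3 at 25 mM (ratio 2.88, exact 95% interval 0.232 to 151).

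The H4 genes gave the highest share of promoters past the threshold in H3K27Ac, 8 of 9, and 0 of 9 in H3K18La (limma, 3 of 9 at an unadjusted p under 0.05), against 40.6% and 20.4% of all promoter peaks, in classes of 2 to 9 promoters. H4c3_1, the promoter peak of H4c3 (chr13:23698223-23699476), went from 3.87 and 5.52 RPKM of H3K27Ac to 24.9 and 14.4 RPKM, a log2 difference of 1.92 ± 0.45 (SE, limma adjusted p = 0.0152). The first library at 25 mM stood above the second. In H3K18La it had 0.378, 0.769 and 1.17 RPKM at 5 mM and 4.06, 3.33 and 1.34 RPKM at 25 mM, apart but not past the threshold (log2 fold change 1.37, SE 0.52, limma adjusted p = 0.0773), and it passed without the third library at 25 mM (0.0497). H4c6 was at 4.03 and 7.01 RPKM of H3K27Ac at 5 mM and 15.5 and 15.4 RPKM at 25 mM (log2 fold change 1.46, SE 0.44, limma adjusted p = 0.0312). Its H3K18La counts were 2 reads at 5 mM and 9 at 25 mM (ratio 4.33, exact 95% interval 0.895 to 41.1). The fit over single libraries gave 0.70 (SE 0.81, limma adjusted p = 0.588), and 0.30 to 1.496 when 1 library was left out.

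H4c12, in stretch A, was the only member whose H3K18La log2 fold change was below 0. Its H3K18La level was 0.892, 0.908 and 1.39 RPKM at 5 mM and 1.44, 0.463 and 0.317 RPKM at 25 mM, with overlapping groups and 1 to 5 reads in a library (log2 fold change -0.43, SE 0.57, limma adjusted p = 0.642). Its H3K27Ac level rose from 1.52 and 1.51 RPKM to 4.45 and 4.18 RPKM (log2 fold change 1.25, SE 0.40, limma adjusted p = 0.0382). A direct test of whether the glucose difference was unlike between marks, the glucose by mark term over all 10 libraries, gave 1.68 for H4c12 (SE 0.72, limma adjusted p = 0.971). No member passed that test, and 1 of 37 had an unadjusted p under 0.05. Over all peaks 0 passed in limma, or 0%, with 4988 (4.61%) at an unadjusted p under 0.05. The unequal numbers of calls in the marks are therefore not shown to be a difference between marks at any single histone peak.

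**Figure D3:**
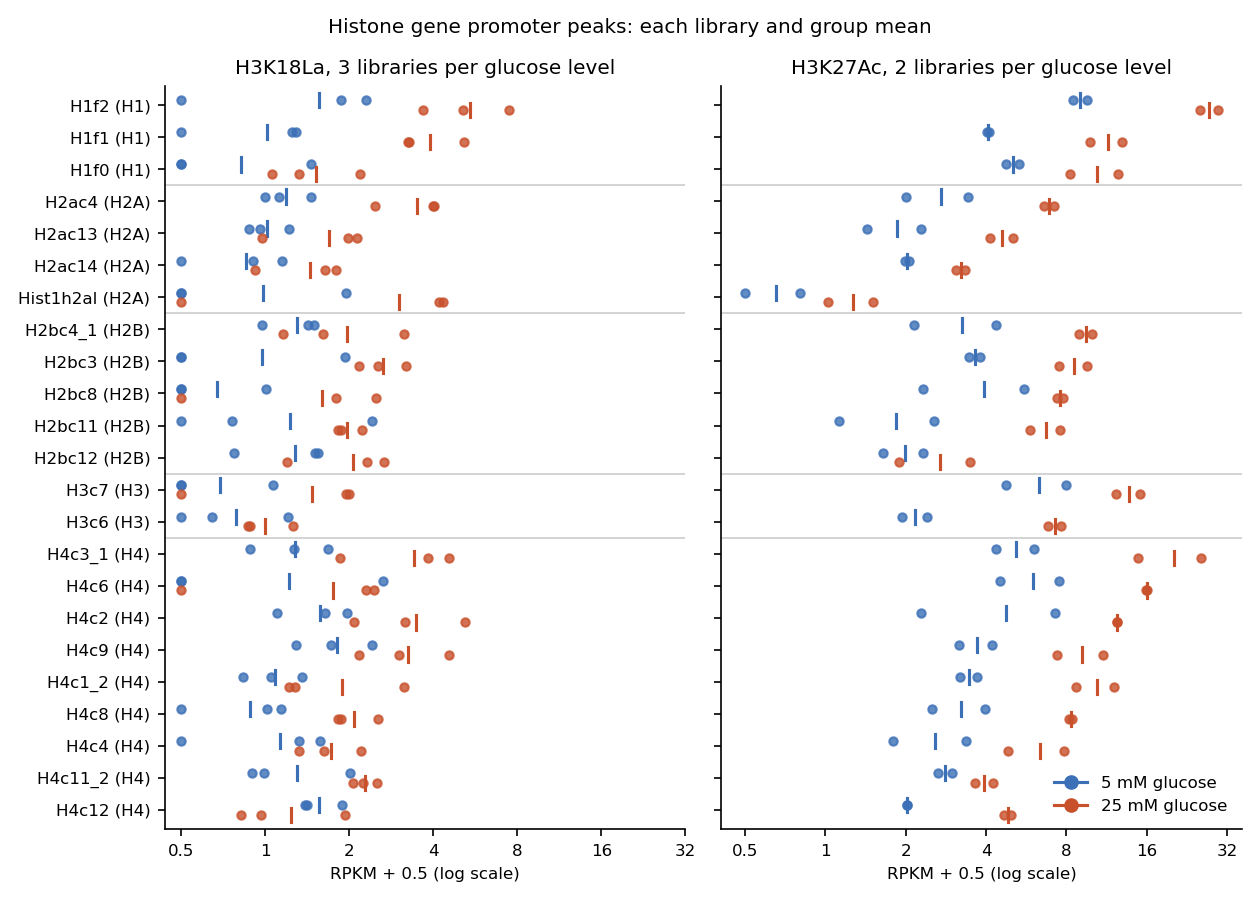
RPKM + 0.5 (log scale) at the 23 histone gene promoter peaks in each library (dots) with the group mean (bars), for H3K18La (left) and H3K27Ac (right), 5 mM in blue and 25 mM in red. In H3K27Ac the glucose levels are apart at 22 of 23 promoters, and in H3K18La at 8 of 23, against 78.5% and 45% of all promoter peaks.

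Peaks outside promoters held the highest H3K18La levels assigned to histone genes. H4c3_2 and H2bc1 had the highest H3K18La means of the 37 peaks at both glucose levels, and in H3K27Ac at 25 mM the H1f2 promoter was highest (26.97 RPKM, against 25.4 RPKM at H4c3_2, 19.7 RPKM at the H4c3_1 promoter and 17.3 RPKM at H2bc1). H4c3_2 (chr13:23700672-23701861) is a distal intergenic peak 2214 bp from H4c3, and it ends 173 bp from Hfe, an iron-regulating gene that sits among the histone genes, so the assignment to H4c3 is by the annotation alone. Its H3K18La level was 1.59, 2.92 and 3.71 RPKM at 5 mM (4, 18 and 6 reads) and 12.8, 14.1 and 11.3 RPKM at 25 mM (30, 68 and 40 reads). The groups were far apart, with a log2 difference of 2.08 ± 0.32 (SE, limma adjusted p = 0.000574). It passed in all 6 fits on 5 of the libraries, with limma adjusted p between 0.000730 and 0.0108. Its H3K27Ac level was 6.41 and 11.4 RPKM at 5 mM and 27.7 and 23.1 RPKM at 25 mM (log2 fold change 1.51, SE 0.47, limma adjusted p = 0.0329).

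H2bc1 is the single peak of stretch D (chr13:23930676-23931790), intergenic and 1935 bp from the testis-type H2B gene it is named for. Its H3K18La level was 3.83, 3.29 and 1.98 RPKM at 5 mM and 11.9, 13.2 and 10.9 RPKM at 25 mM, a log2 difference of 1.86 ± 0.30 (SE, limma adjusted p = 0.000828). It also passed in each of those 6 fits, with limma adjusted p between 0.00115 and 0.0130. For H3K27Ac it was at 6.84 and 10.4 RPKM against 19.0 and 15.6 RPKM and did not pass (log2 fold change 0.98, SE 0.45, limma adjusted p = 0.131). Neither peak overlaps a RefSeq histone promoter.

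The other H3K18La calls outside promoters rest on a handful of reads. H2bc6_3, in an intron of the long H2bc6 transcript, had 0, 2 and 0 reads at 5 mM and 4, 9 and 6 at 25 mM (log2 fold change 2.20, SE 0.55, limma adjusted p = 0.0116), a ratio of summed reads of 9.13 after scaling (exact 95% interval 2.20 to 80.9). H2bc4_2, in the 3′ UTR of a long H2bc4 transcript, held 0 reads at 5 mM in every library and 2, 3 and 2 at 25 mM, which is at or under the floor in every library, so no fold is given although it passed (limma adjusted p = 0.0148). Without the second library at 25 mM neither passed (limma adjusted p = 0.0636 and 0.0562). In H3K27Ac, with more reads, H2bc6_3 went from 2.71 ± 0.207 to 8.10 ± 1.86 RPKM (SD, n = 2 each, limma adjusted p = 0.0273) and H2bc4_2 from 1.86 ± 0.183 to 6.50 ± 0.979 RPKM (limma adjusted p = 0.0190). H2bc6_1, over the H2bc6 promoter, and H4c1_1, 263 bp from H4c1, had H3K27Ac log2 fold changes of 1.83 (SE 0.43, limma adjusted p = 0.0151) and 1.83 (SE 0.44, limma adjusted p = 0.0164). H2bc6_1 was at 2.47 and 4.02 RPKM against 13.8 and 11.4 RPKM, and H4c1_1 at 0.484 and 0.674 RPKM against 4.51 and 2.40 RPKM.

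Along chromosome 13 the H3K27Ac calls were concentrated in stretch C, as a description with no test of the stretches. There 20 of 22 peaks passed, against 16.4% of all peaks, with a median log2 fold change of 1.47 and a median level that went from 3.04 to 8.68 RPKM. In stretch A 2 of 6 passed, with a median log2 fold change of 0.78 and levels of 1.52 and 3.76 RPKM, and in B 2 of 3 passed with a median of 1.30. In H3K18La, where 20.6% of all peaks were called higher, 6 of 22 peaks passed in C and 0 in A or B (limma, 0 of 6 and 0 of 3 at an unadjusted p under 0.05), with medians of 1.17, 0.73 and 0.83. Repeated words made up 0% to 30.9% of the peaks in A and 0% to 28.8% of those in C. Of the 26 peaks that passed for H3K27Ac, 10 had no repeated words and 10 had more than 10%.

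**Figure D4:**
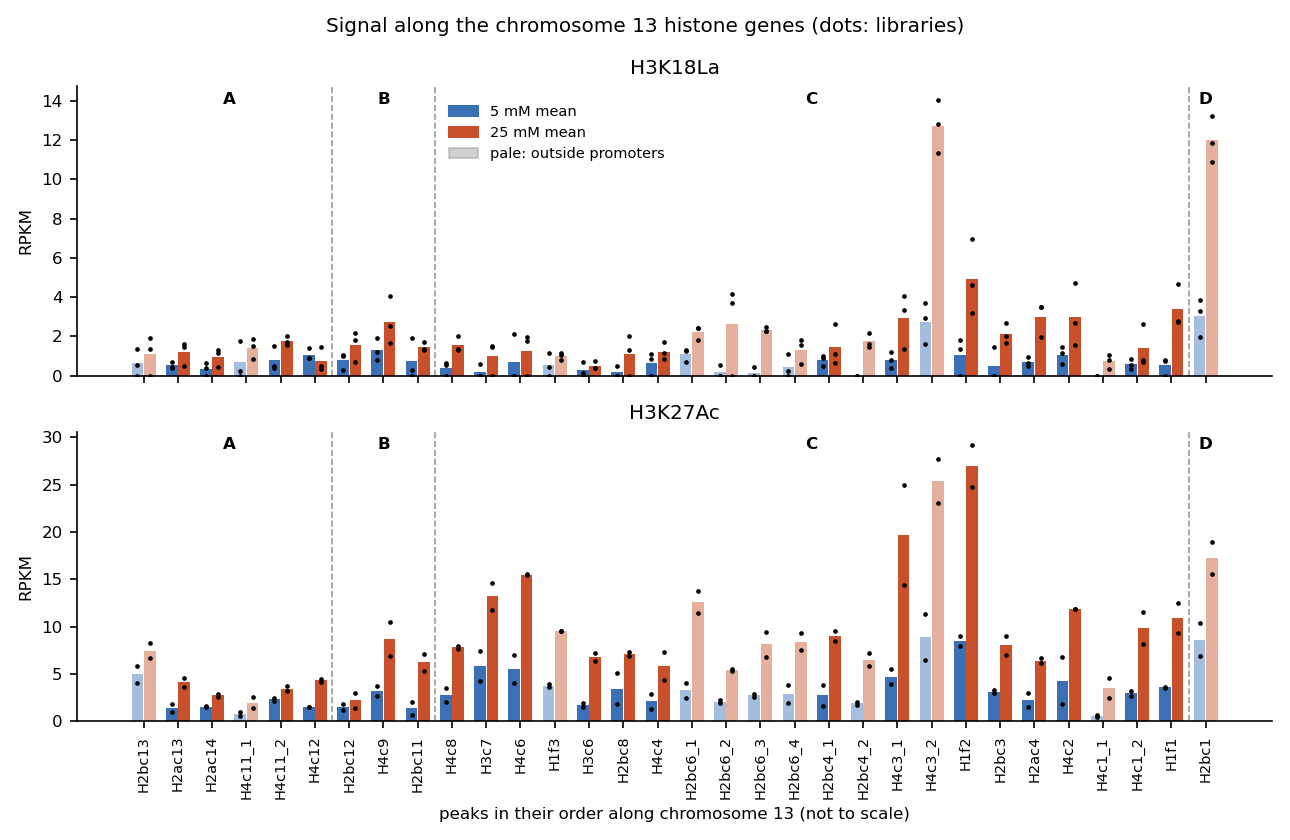
Mean RPKM at 5 mM (blue) and 25 mM (red) with single libraries as dots, for the 32 histone peaks of stretches A to D in their order along chromosome 13 (not to scale), H3K18La above and H3K27Ac below; pale bars are peaks outside promoters. Mean signal is highest at H4c3_2 and H2bc1 in H3K18La at both glucose levels, and at H1f2 and H4c3_2 in H3K27Ac at 25 mM. At 5 mM the H3K27Ac means of H4c3_2, H2bc1 and H1f2 are close (8.89, 8.62 and 8.50 RPKM).

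Members were also read relative to all signal in peaks, since most peaks moved with glucose. The 23 histone promoters took, per 10000 reads in peaks, 1.32 ± 0.121 in the H3K18La libraries at 5 mM and 1.38 ± 0.221 at 25 mM (SD, n = 3 each), a difference smaller than the spread between libraries. The 14 peaks outside promoters went from 1.14 ± 0.0154 to 1.52 ± 0.0446 in H3K18La, with the groups apart. In H3K27Ac they went from 1.62 ± 0.0720 to 1.89 ± 0.121. In H3K18La, 95% counting intervals (Wilson) of single libraries overlapped, as 0.710 to 1.77 at 18 reads (5 mM) and 1.21 to 1.79 at 101 reads (25 mM). Much of that signal lay in H4c3_2 (28 reads at 5 mM and 138 at 25 mM over the libraries) and H2bc1 (31 and 122). The remaining peaks were not summed without them, so a rise of the whole set is not shown. For H3K27Ac the promoters took 2.87 ± 0.282 at 5 mM and 3.49 ± 0.199 at 25 mM (SD, n = 2 each). Over all 37 peaks the values were 2.46 ± 0.135 and 2.89 ± 0.183 for H3K18La and 4.49 ± 0.354 and 5.38 ± 0.320 for H3K27Ac. With libraries scaled by their reads in peaks, 0 members passed in limma for either mark (4 and 2 at an unadjusted p under 0.05), and the medians fell to 0.36 and 0.26, while the medians over all peaks shifted by -0.81 and -0.86. Against the median promoter of all genes, the histone promoters differed by 0.07 in H3K18La and 0.17 in H3K27Ac on the log2 scale.

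Genes that act on histone messages, replace histones or carry them were read at their strongest promoter peak. Over all 14562 genes so read, 42.5% were called higher in H3K27Ac and 20.1% in H3K18La, and 8 and 7 genes were called lower. In H3K27Ac, 8 of 13 measured promoters of the list on transcription and processing of histone messages rose and 0 fell, with a median of 1.53. Slbp, whose protein binds the histone stem-loop, rose from 7.14 to 31.3 RPKM (log2 fold change 2.04, limma adjusted p = 0.0144), and Npat, the activator of histone gene transcription in S phase, from 5.84 to 26.2 RPKM (2.04, 0.0141). In H3K18La 0 of those 13 passed (limma, 4 at an unadjusted p under 0.05), with a median of 0.74. Of 7 replacement histone promoters, 6 rose in H3K27Ac and 1 in H3K18La. That was H3f3a, which encodes H3.3, with a mean of 0.586 RPKM at 5 mM and 4.88 RPKM at 25 mM (log2 fold change 2.22, SE 0.46, limma adjusted p = 0.00391), and H3f3b, which encodes the same protein, was at 0.479 and 0.539 RPKM (log2 fold change 0.01, SE 0.68, limma adjusted p = 1). H2az1, which encodes H2A.Z, rose in H3K27Ac from 4.55 to 17.3 RPKM (log2 fold change 1.75, limma adjusted p = 0.0192).

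Histone chaperones, which carry histones to DNA, had 12 of 15 promoters higher in H3K27Ac and 4 of 15 in H3K18La, with medians of 1.45 and 1.04. Daxx, a chaperone of H3.3, had the highest level of the list and rose from 13.9 to 58.8 RPKM in H3K27Ac (log2 fold change 2.04, limma adjusted p = 0.0181). Nap1l1, a chaperone of H2A and H2B, rose in both marks, with log2 fold changes of 1.36 in H3K18La (limma adjusted p = 0.0332) and 1.45 in H3K27Ac (0.0371). Of the S phase and cell division list, 11 of 20 genes had a promoter peak, of which 5 rose in H3K27Ac and 2 in H3K18La, near the shares over all genes, with medians of 1.20 and 0.80. Pcna, the sliding clamp of DNA replication, rose from 10.8 to 29.5 RPKM in H3K27Ac (limma adjusted p = 0.0401), and Mcm2, a subunit of the replicative helicase, rose in both marks (log2 fold changes 1.79 and 1.76, limma adjusted p = 0.0443 and 0.0185) and is also counted among the chaperones. No gene of these 4 lists was called lower in either mark, but over all 14562 genes only 7 were in H3K18La and 8 in H3K27Ac, so this is not particular to the lists. Over all promoters by their strongest peak the medians were 0.88 in H3K18La and 1.16 in H3K27Ac, and the 7 rod markers had medians of 2.48 and 2.11, with all 7 higher in both marks. Without any 1 library, fits for H3K27Ac passed 0 peaks at all, these genes included.

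**Figure D5:**
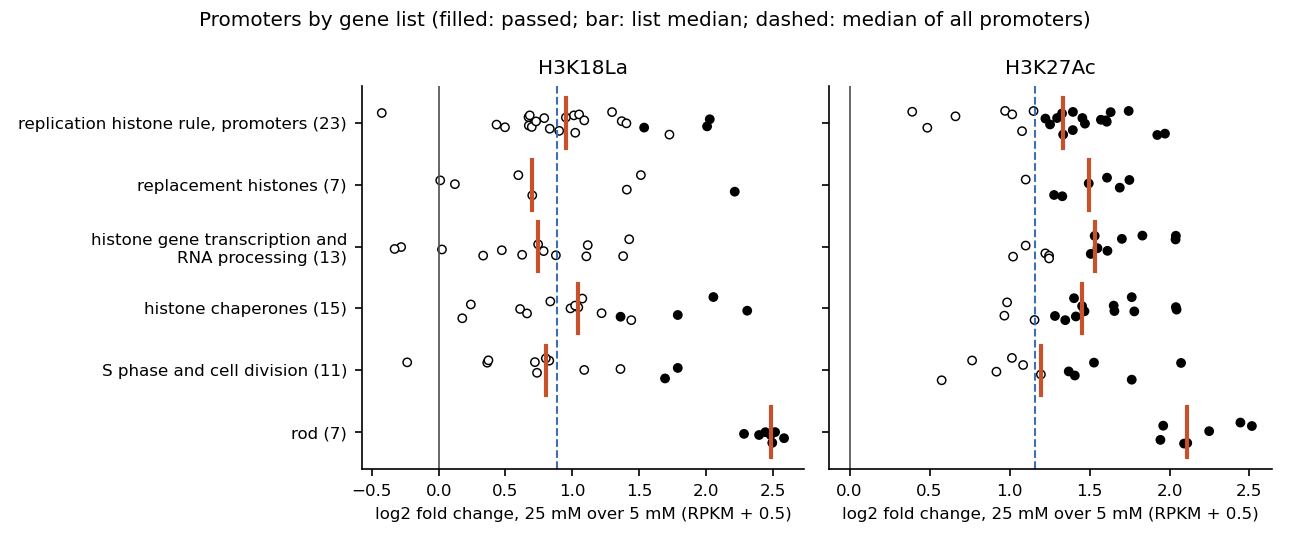
Log2 fold change of RPKM + 0.5 (25 mM over 5 mM) at the promoters of the histone genes and of 5 gene lists, with the number of promoters in brackets, for H3K18La (left) and H3K27Ac (right); filled points passed an adjusted p of 0.05, red bars are list medians and the dashed line is the median of all promoters. The medians of the histone promoters are 0.95 and 1.33, and the 7 rod promoters all lie to its right.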

How the data were processed

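Retinal explants were profiled by CUT&Tag for H3K18La (6 libraries) and H3K27Ac (4 libraries). The authors aligned reads to GRCm38 with nf-core/cutandrun, called peaks with MACS, removed blacklisted regions, quantified a merged peak set (developmental or explant, not stated for this table), normalised with csaw, annotated peaks with ChIPseeker and deposited RPKM values per peak. Whether csaw factors enter the denominators is not given in the sources used here. A further deposited table holds the authors' own edgeR comparison for H3K18La (fold changes, p-values, group means) and was not used. Each mark was fitted over all 108253 peaks with limma 3.58.1 (R 4.3.3, lmFit, eBayes with trend and robust moderation) on log2(RPKM + 0.5), Benjamini-Hochberg adjusted, threshold 0.05, and tested on simulated data. Reads were recovered from RPKM, 100% of values being whole within 0.05 read, yet the unit is RPKM, so the planned count tests were not run. Members and lists were chosen with earlier results of these data known. Named with values are, per class, the 2 strongest promoters and the weakest, per mark the 4 largest rises and falls past the threshold with groups apart, H1f0 and H1f10, the 2 strongest genes of each list with H3f3a and H3f3b, and the 2 strongest peaks outside promoters. Other names were chosen after their values were seen. The alternatives were another pseudocount, a level filter, other scalings, other moderation, voom, a replicate block and leaving out each library.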

Additional observations from a re-analysis of the deposited data

How the results depend on the processing

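Most calls changed with the scaling. In H3K18La 22474 peaks passed, 5434 after median centring (5195 higher), 0 when scaled to reads in peaks (limma, 10411 at an unadjusted p under 0.05), 11775 at a threshold of 0.01 and 12138 to 21212 without 1 library. Histone peaks past the threshold went from 7 to 2, 0 (4 unadjusted), 2 and 3 to 7 in the same order, to 12 with voom, and to 3 for promoters alone or for peaks over a RefSeq promoter. Their median of 1.01 became 1.76 and 0.71 with pseudocounts of 0.1 and 1, 0.38 after median centring, 0.36 for reads in peaks, 1.24 with voom and 0.83 over RefSeq promoters. The median of the 23 histone promoters minus that of all genes' promoters, 0.07, became 0.25 with a pseudocount of 0.1, -0.011 with a filter at a mean of 1 RPKM, 0.34 for reads in peaks and -0.075 to 0.14 without 1 library (-0.075 without the first at 5 mM). In H3K27Ac 17988 peaks passed, 5533 after median centring (5137 higher), 86 at a threshold of 0.01, and 0 with a pseudocount of 0.1 (limma, 33585 unadjusted), reads in peaks (15589), no robust moderation (31013) or without any 1 library, where 1 residual degree of freedom is left and no peak passed whichever library was removed. Histone peaks went from 26 to 4 after median centring, 16 for promoters alone, and 0 at 0.01 and in those other settings (31, 2 and 29 unadjusted). Their median of 1.40 became 0.96, 0.26 for reads in peaks, and 1.12 to 1.48 without 1 library. The replicate block gave 18471 and 8518 peaks and 6 and 15 histone peaks, with H2ac4 lost in H3K18La (limma adjusted p = 0.0534). Replicate numbers did not pair the libraries (correlations of deviations -0.004 to 0.024).

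Of the 37 histone peaks, 36 were above 0 in H3K18La, 24 for reads in peaks and 33 after median centring, and in H3K27Ac 37, 29 and 36. Among the peaks named by the rule, signs turned for H3K18La at H2ac13 (-0.22), H2bc4_1 (-0.53), H2bc12 (-0.30), H3c6 (-0.059) and H2bc6_1 (-0.32) for reads in peaks and at H2bc4_1 (-0.13) and H3c6 (-0.20) after median centring. H2bc13, not among them, turned without the third library at 5 mM (-0.075) or at 25 mM (-0.021). For H3K27Ac, named peaks turned at H1f0 (-0.17), H2bc12 (-0.55), H3c7 (-0.061) and H2bc1 (-0.24) for reads in peaks and at H2bc12 after median centring (-0.045) and without the second library at 25 mM (-0.049). The cause was not tested. No alternative gave a glucose by mark call in limma. The planned edgeR and DESeq2 alternatives were not run, because the values are RPKM.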
